A study of Homo sapiens with 6 samples.

Results

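The genes described here are 38 genes of glycolysis and of the response to low oxygen, taken by gene symbol from the deposited expression tables. All 38 symbols were found, among 39739 gene rows. By role they fall into 17 glycolytic enzymes, 6 genes of glucose and lactate transport and of the control of glycolytic flux, 4 genes of oxygen sensing and 11 other hypoxia-induced genes. The measurements are RNA-seq of HGC27, an established human gastric cancer cell line, with 3 libraries from HGC27-FN1 3′-UTR cells and another 3 from HGC27-control cells. HGC27-FN1 3′-UTR cells stably overexpress the 3′-untranslated region of *FN1*, the fibronectin gene, delivered by lentivirus, and the study's methods describe selection of infected cells with puromycin. The HGC27-control cells carry the label Control, and the labels do not say which vector, if any, they received. Both groups were grown in the same serum-containing medium, and no low-oxygen treatment is given in the labels. The labels do not state whether the replicates of a group came from separate cultures, so the p-values measure the spread between these libraries, which may be technical.

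Glycolysis converts glucose to pyruvate in the cytosol, and lactate dehydrogenase then turns pyruvate into lactate. When oxygen is low, the hypoxia-inducible factors HIF-1α and HIF-2α escape degradation through prolyl hydroxylases and the VHL ubiquitin ligase, and they raise the transcription of glucose transporters, glycolytic enzymes and genes such as *VEGFA*, *ADM* and *CA9*. Many tumour cells keep glycolysis high with oxygen present, so these genes are often read together. The question here was which of them differed between HGC27-control and HGC27-FN1 3′-UTR cells, and whether the enzymes and the other hypoxia-induced genes moved in the same direction.

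Expression is given as RPKM, which divides a gene's reads by the kilobases of its merged exons and by the library's assigned reads, counted in units of 1000000, so that levels can be compared between genes. Libraries held between 16357085 and 37037532 assigned reads, and 3 reads corresponded to 0.081 to 0.183 per 1000000 assigned reads. Groups were compared with limma, two-sided, on log2(RPKM + 0.1) over 23299 genes that reached 0.1 RPKM in no fewer than 3 libraries, with Benjamini-Hochberg adjustment over all of them. A log2 fold change is the difference of this log2 value, HGC27-FN1 3′-UTR minus HGC27-control, and understates the change of genes with low RPKM. Among all tested genes, 5.62% were higher and 7.36% lower with an adjusted p below 0.05, which is 1310 and 1715 genes. With any library left out these fell to between 501 and 927 and between 470 and 1015. Median-ratio scaling of the libraries turned this split to 1696 higher and 1330 lower. *FN1* itself measured 0.777, 0.745 and 0.819 RPKM in HGC27-FN1 3′-UTR libraries and 0.543, 0.474 and 0.532 RPKM in the HGC27-control libraries (limma adjusted p = 0.0292). This *FN1* call was lost in each of the 6 fits that left out 1 library, where its adjusted p from limma rose to as much as 0.0982. The value covers the whole gene and does not separate its 3′-UTR.

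Some markers of cell type and cell state differed between the groups. Of 16 gastric epithelial markers, 14 were in the table, 10 were tested and 9 of these were higher in HGC27-FN1 3′-UTR cells, with a summed level of 27.4 to 38.4 RPKM against 5.02 to 5.31 RPKM. Within this list *TFF1*, *MUC5AC* and *PGC* were at or near 0 in every library. The 9 that were higher were *KRT8*, *KRT18*, *KRT19*, *KRT7*, *EPCAM*, *CDH1*, *MUC1*, *CTSE* and *LYZ*, and *CLDN4* was not called. *KRT8* and *KRT18* had means of 12.2 and 4.87 RPKM against 2.15 and 0.179 RPKM. *CTSE* and *LYZ* had means of 2.46 and 4.06 RPKM against 0.075 and 0.185 RPKM. Of 8 mesenchymal markers, 7 were tested and 4 were higher, with sums of 425 to 449 RPKM against 374 to 427 RPKM. The 4 were *SNAI2*, *TWIST1*, *SPARC* and *FN1*, the last being the gene whose 3′-UTR was overexpressed. *VIM* made up most of the sums, with means of 304 and 303 RPKM, and *VIM*, *ZEB1* and *ZEB2* were not called. *CDH2* was below 0.1 RPKM in every library. Among 10 immune, endothelial, fibroblast, erythroid and liver markers, 5 were tested and *LUM* was higher, with sums of 16.9 to 19.0 RPKM against 11.6 to 13.5 RPKM, while *PECAM1* was at 0 throughout. The part of these differences in the results given here was not tested. In such bulk libraries, fewer cells expressing a gene and less RNA per cell cannot be told apart.

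Of the 38 genes, 37 passed the filter on low values and 9 of these had an adjusted p under 0.05 from limma. In HGC27-FN1 3′-UTR cells *ENO1*, *PKM*, *LDHA*, *SLC2A3* and *ADM* were higher, and *ENO2*, *VEGFA*, *BNIP3L* and *KDM3A* were lower. These 5 and 4 of 37 stand beside the 5.62% and 7.36% of all tested genes. In a fit of the 14652 genes with a mean of at least 1 RPKM, 8.27% were higher and 12.7% were lower, and 6 of the 31 members in that fit were higher and 4 were lower. The remaining 28 tested members did not pass the test. The groups did not overlap for 9 members that were higher and 8 that were lower, against 14.3% and 21.7% of all tested genes. At the criteria used in the study, a log2 fold change beyond 1 in either direction with p under 0.05 before adjustment, *SLC2A3* and *ADM* passed, both higher, against 2.47% of all tested genes in either direction. The median log2 fold change of the 37 was -0.0065, and that of all tested genes was -0.035. Leaving out 1 library at a time gave 3 to 5 members higher and 2 to 4 lower, with the lowest counts without control replicate 2. With 3 libraries a side, the smallest two-sided p of an exact permutation test is 0.1.

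**Figure D1:**
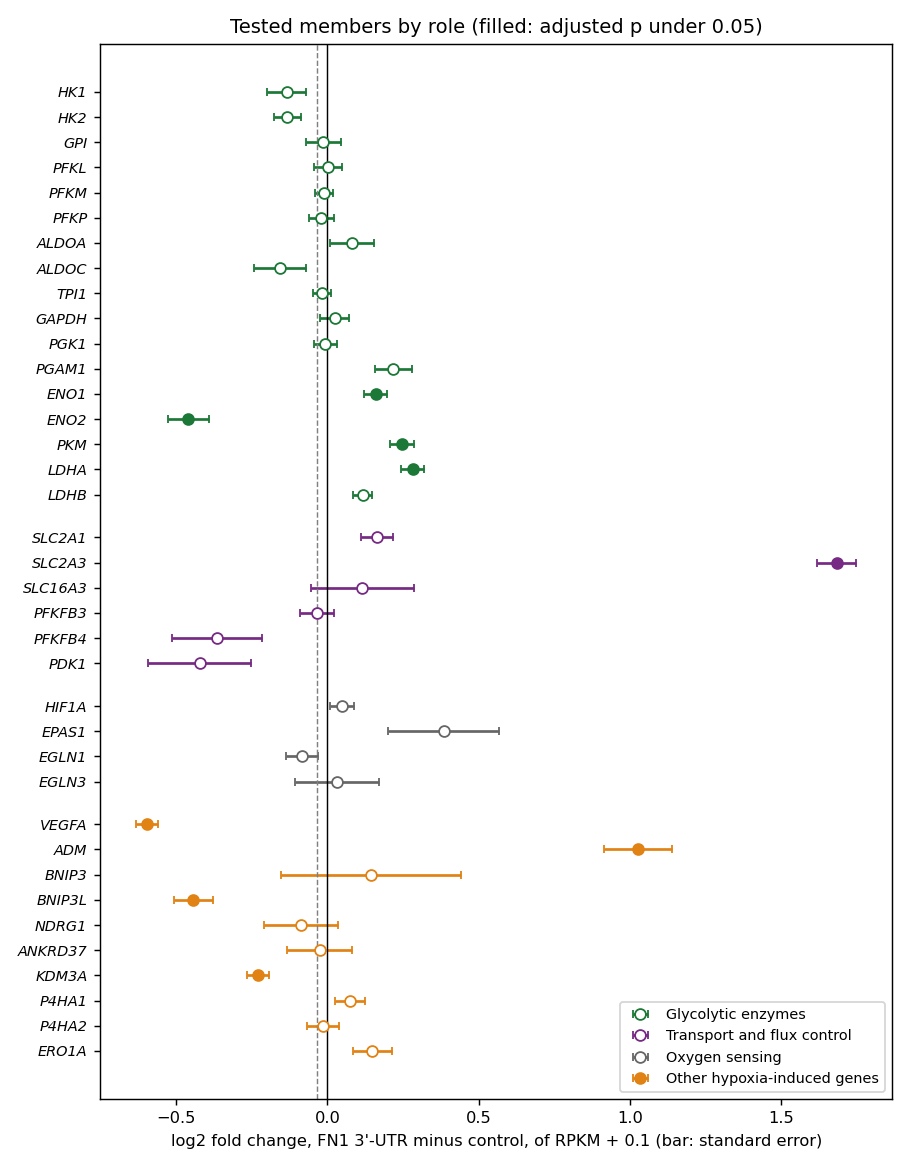
Log2 fold change (HGC27-FN1 3′-UTR minus HGC27-control, of RPKM + 0.1) of the 37 tested genes, by role, with bars for the standard error from limma and filled points for an adjusted p under 0.05. The dashed line is the median of all tested genes, -0.035, and *SLC2A3* at 1.68 and *ADM* at 1.03 lie to the right of all other members.

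HIF binds DNA at a core of 5 letters, ACGTG or GCGTG. Both forms were searched on both strands of RefSeq promoters on GRCh38.p14, from 250 bases before to 50 bases after each start site. Promoters were listed for 34 of the 38 genes, 62 in all, with none for *SLC2A3*, *VEGFA*, *BNIP3L* and *NDRG1*. ACGTG was present in 38.7% of the members' promoters and in 21.4% of all 35116 promoters. GCGTG was present in 41.9% and 36.5%, and either form in 67.7% and 48.4%. Counted by gene, with a match in any of its promoters, 6 of 6 called genes with a promoter entry held either form and 2 of 6 held ACGTG. Among the other 28 genes, 25 held either form and 18 held ACGTG. Some genes have several promoters, so these counts of genes cannot be set against the shares of promoters. No such share over all genes was computed. The following windows of 25 bases are written 5′ to 3′ on the strand of the gene with the motif in capitals, and are shown so that genes that rose, fell or did not pass the test can be read side by side.
*LDHA* (rose), chr11:18394369-18394393, plus strand: ctcccagcgcACGTGgagcagtctg
*LDHA* (rose), chr11:18394467-18394491, plus strand: cccgactcacACGTGggttcccgca
*ENO1* (rose), chr1:8878744-8878768, minus strand: agctgaggggGCGTGccccggaggc
*PKM* (rose), chr15:72231164-72231188, minus strand, motif on the opposite strand: acagcagctgCACGCgccgtggctc
*ADM* (rose), chr11:10304962-10304986, plus strand: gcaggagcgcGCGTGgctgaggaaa
*ENO2* (fell), chr12:6914452-6914476, plus strand: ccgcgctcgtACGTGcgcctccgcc
*KDM3A* (fell), chr2:86441335-86441359, plus strand: gggaggctgtGCGTGtcttgtgaga
*GAPDH* (not called), chr12:6535174-6535198, plus strand: ctgcggggtcACGTGtcgcagagga
*PGK1* (not called), chrX:78104036-78104060, plus strand: ggcgtgccggACGTGacaaacggaa
Genes with a match thus lay on both sides and among the uncalled genes. In *LDHA* and *GAPDH* the letter before the core is c, so that the same place reads as CACGTG on either strand, which is also the E-box bound by MYC and other factors. A match is a description of the letters in these windows, not a measured binding site.

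Among the 17 glycolytic enzymes, *ENO1*, *PKM* and *LDHA* rose and *ENO2* fell, and 13 did not pass the test. Over all tested genes, 5.62% rose and 7.36% fell. The log2 fold changes of the 17 enzymes ran from -0.46 to 0.28, with a median of -0.0065. The 3 enzymes that rose act at the lower end of the pathway. So do *ENO2*, which fell, and *PGAM1* and *LDHB*, which were not called. Enolase, encoded by *ENO1*, makes phosphoenolpyruvate. Pyruvate kinase, encoded by *PKM*, turns phosphoenolpyruvate into pyruvate with a gain of ATP. The A subunit of lactate dehydrogenase, encoded by *LDHA*, favours the step from pyruvate to lactate.

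*LDHA* (chr11:18394388-18408425 on GRCh38) measured 174.5, 172.3 and 164.2 RPKM in HGC27-FN1 3′-UTR libraries and 135.4, 141.1 and 143.7 RPKM in the HGC27-control libraries. All 3 values of the former lay above those of the latter, with means of 170.3 ± 5.47 and 140.1 ± 4.25 RPKM (SD, n = 3 each), 21.6% apart. Its log2 fold change was 0.28 (SE 0.037, limma adjusted p = 0.00776), and the call was kept under all 14 other settings tried. A pair of the *LDHA* windows with ACGTG is given among the sequences, and a further match on the opposite strand at chr11:18394480-18394504 is not printed.

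*PKM* (chr15:72199029-72231822) measured 141.0, 131.6 and 133.1 RPKM in HGC27-FN1 3′-UTR cells and 110.7, 112.9 and 118.3 RPKM in HGC27-control cells. The groups did not overlap and the means differed by 18.6%, with a log2 fold change of 0.25 (SE 0.040, limma adjusted p = 0.0144). The call was lost without control replicate 2, at an adjusted p of 0.0640 from limma, with the fold change at 0.24. The gene-level value sums the splice forms of pyruvate kinase, which these tables do not separate.

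*ENO1* (chr1:8861002-8879249) was among the most abundant transcripts of the cells, with rank 70 of all rows by mean RPKM. It measured 724.9, 702.0 and 701.4 RPKM in HGC27-FN1 3′-UTR cells and 613.3, 633.1 and 659.8 RPKM in HGC27-control cells. The means were 709.4 ± 13.4 and 635.4 ± 23.4 RPKM (SD, n = 3 each), 11.6% apart without overlap. The log2 fold change of 0.16 (SE 0.039) lay close to the threshold, with an adjusted p of 0.0446 from limma. When 1 library was removed at a time, 5 of 6 fits lost the call, with adjusted p-values up to 0.141 from limma and fold changes between 0.13 and 0.19, and only the fit without control replicate 3 kept it.

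*ENO2* (chr12:6913745-6923698), the enolase of neurons and neuroendocrine cells, went the other way at a far lower level. It measured 3.44, 4.03 and 3.74 RPKM in HGC27-FN1 3′-UTR cells and 5.16, 5.35 and 4.99 RPKM in HGC27-control cells. Without overlap between the groups, its mean fell by 27.7%, and its log2 fold change was -0.46 (SE 0.067, limma adjusted p = 0.0107). Leaving out control replicate 2 gave an adjusted p of 0.0512 from limma, with a fold change of -0.43. Set against *ENO1* within each library, the *ENO2* level was 0.00527 ± 0.00050 of that of *ENO1* in HGC27-FN1 3′-UTR cells and 0.00814 ± 0.00050 in HGC27-control cells (SD, n = 3 each). The products of *ENO1* and *ENO2* catalyse the same step, and *ENO1* was by far the more abundant in either group. *ENO3*, a further enolase gene outside the members, had means of 23.7 RPKM in HGC27-FN1 3′-UTR and 21.5 RPKM in HGC27-control cells. It thus lay above *ENO2* in both groups, overlapped between them and was not called.

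The remaining 13 enzymes had log2 fold changes between -0.16 and 0.22 and were not called. *GAPDH*, the enzyme that makes NADH in glycolysis and a common reference gene, measured 837.0, 805.6 and 840.3 RPKM in HGC27-FN1 3′-UTR cells and 779.4, 801.7 and 862.7 RPKM in HGC27-control cells. The groups overlapped, and the log2 fold change was 0.02 (SE 0.047, limma adjusted p = 0.786). *HK2*, the hexokinase that many tumours express and that traps glucose in the cell, measured 20.97, 19.74 and 20.23 RPKM against 21.13, 23.06 and 22.66 RPKM. All HGC27-FN1 3′-UTR values of *HK2* were below the control values, with a log2 fold change of -0.13 and an adjusted p of 0.103 from limma. The ratio of *HK2* to *HK1*, the hexokinase of most tissues, was 2.83 ± 0.058 and 2.83 ± 0.20 (SD, n = 3 each), and these overlapped.

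Nearest to the threshold among uncalled enzymes were *LDHB*, the lactate dehydrogenase subunit that favours pyruvate formation, at a log2 fold change of 0.12 (limma adjusted p = 0.0599), and *PGAM1*, phosphoglycerate mutase, at 0.22 (limma adjusted p = 0.0698). In both, the groups did not overlap. *PGAM1* measured between 131.2 and 146.4 RPKM in HGC27-FN1 3′-UTR cells and between 113.8 and 129.5 RPKM in HGC27-control cells. The ratio of *LDHA* to *LDHB* was 0.503, 0.506 and 0.500 in HGC27-FN1 3′-UTR libraries and 0.432, 0.457 and 0.456 in the control libraries. This ratio separated the groups, and in all 6 libraries the level of *LDHB* was above that of *LDHA*. For the enzymes of the upper and middle steps *GPI*, *PFKL*, *PFKM*, *PFKP*, *TPI1* and *PGK1*, the groups overlapped and the log2 fold changes lay within 0.02 of 0. *ALDOA*, the main aldolase here, had a log2 fold change of 0.08 with overlap, and its low-level relative *ALDOC* one of -0.16 with overlap.

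**Figure D2:**
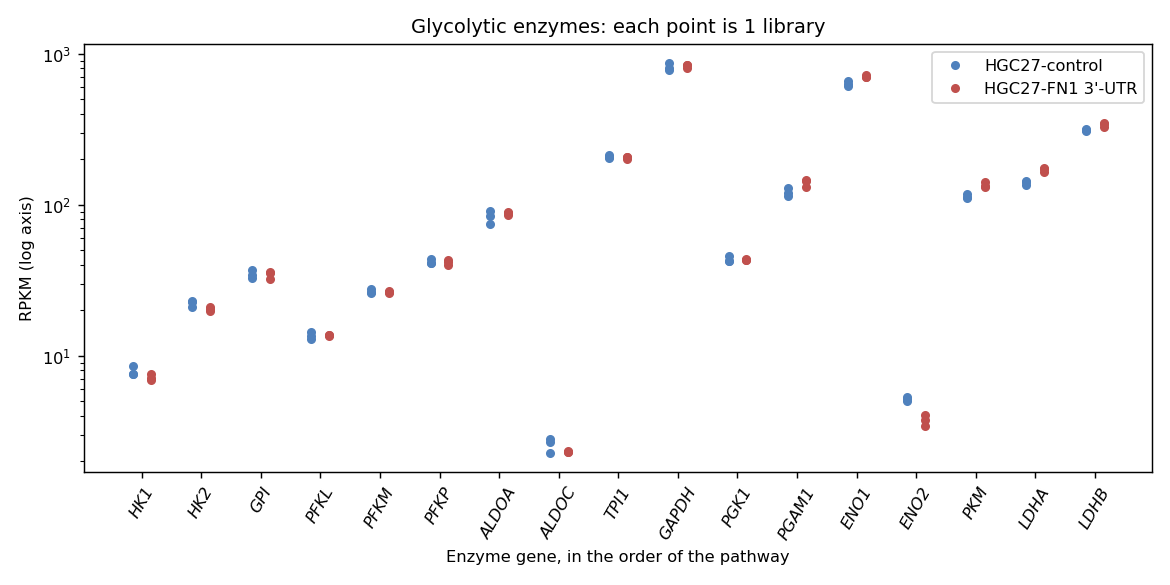
RPKM (log axis) of the 17 glycolytic enzymes in the order of the pathway, 1 point per library, HGC27-control in blue and HGC27-FN1 3′-UTR in red. *GAPDH* and *ENO1* stand highest, at 613.3 RPKM or more in each library, *ALDOC* and *ENO2* stand lowest, and the red points of *LDHA* and *PKM* lie just above the blue.

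Summed over the 17 enzymes, the level was 2865, 2758 and 2799 RPKM in HGC27-FN1 3′-UTR cells and 2534, 2605 and 2739 RPKM in HGC27-control cells. The sums did not overlap, although the lowest of the former and the highest of the latter were close, and *GAPDH*, *ENO1* and *LDHB* make up most of them. With *GAPDH* as the denominator within each library, *PGAM1*, *PKM* and *LDHA* each gave ratios without overlap between the groups. These numerators were picked with the members' results known, and their RPKM already did not overlap between the groups. The ratios therefore add no separate evidence, no test was made on them, and *PGAM1* itself was not called. Other enzymes were not set against *GAPDH*. For *LDHA* these ratios were 0.206 ± 0.0095 and 0.172 ± 0.0049 (SD, n = 3 each).

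Of the 6 genes of transport and flux control, *SLC2A3* rose and 5 were not called, beside the 5.62% of all tested genes that rose. *SLC2A3* (chr12:7919230-7936275), which encodes GLUT3, a glucose transporter of high affinity best known from neurons, measured 7.26, 7.09 and 7.28 RPKM in HGC27-FN1 3′-UTR cells and 2.05, 2.11 and 2.38 RPKM in HGC27-control cells. The groups lay far apart compared with their spread, at 7.21 ± 0.10 and 2.18 ± 0.18 RPKM (SD, n = 3 each), a ratio of 3.31. Its log2 fold change was 1.68 (SE 0.065, limma adjusted p = 0.000199), the largest in size of all members, and it stayed between 1.64 and 1.75 when any library was left out. Behind these values stood totals of 3108 reads in HGC27-FN1 3′-UTR and 1226 in control libraries.

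Copies of the *SLC2A3* sequence elsewhere in the genome make this value less certain, since the handling of reads that match several places is not given in the sources used here. The rows of 3 processed pseudogenes of *SLC2A3* together held 2234 reads in HGC27-FN1 3′-UTR libraries and 2663 reads in control libraries, or 71.9% and 217% of the reads of the gene. Of these, 2226 and 2647 belonged to *SLC2A3P1* (chr5:168552277-168553727), named after its values were seen. This row measured 22.3, 22.1 and 21.6 RPKM against 20.2, 21.2 and 19.5 RPKM (limma adjusted p = 0.104). The neighbouring near-identical gene *SLC2A14* was at 0.095 to 0.12 RPKM and 0.023 to 0.068 RPKM without overlap, below the filter. Thus *SLC2A3P1* was not called and *SLC2A14* was not tested.

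*SLC2A1* (chr1:42925375-42959173), which encodes GLUT1, the glucose transporter of most cells and a classical HIF target, measured 11.6, 10.8 and 10.7 RPKM against 9.75, 10.4 and 9.37 RPKM in the control libraries. The groups did not overlap, but the log2 fold change of 0.16 did not pass the test (SE 0.054, limma adjusted p = 0.0973). Within each library, the *SLC2A3* level was 0.624, 0.659 and 0.683 of that of *SLC2A1* in HGC27-FN1 3′-UTR cells and 0.210, 0.204 and 0.254 in HGC27-control cells. *SLC2A1* remained the more abundant transcript in each library, by a narrower margin in HGC27-FN1 3′-UTR cells.

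*PFKFB3*, whose product makes fructose 2,6-bisphosphate and so activates phosphofructokinase, measured 9.67, 8.99 and 9.38 RPKM against 8.87, 9.92 and 9.94 RPKM, with overlap and an adjusted p of 0.751 from limma. Its relative *PFKFB4* and *PDK1*, the kinase that shuts pyruvate dehydrogenase and so keeps pyruvate out of mitochondria, were both under 0.5 RPKM in every library. In both, the HGC27-FN1 3′-UTR values were below all control values, with log2 fold changes of -0.37 and -0.42 that did not pass the test (limma adjusted p of 0.164 and 0.159). *SLC16A3*, the lactate exporter MCT4, was also low, at 0.27 to 0.42 RPKM over the 6 libraries, with overlap.

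None of the 4 oxygen sensing genes passed the test by limma, and 0 had an unadjusted p under 0.05, while limma's voom on recovered reads called 1, *EPAS1*, higher (adjusted p = 0.0391). *HIF1A*, encoding HIF-1α, measured 14.3, 15.1 and 15.4 RPKM in HGC27-FN1 3′-UTR cells and 14.4, 14.8 and 14.0 RPKM in HGC27-control cells. These overlapped, with a log2 fold change of 0.05 (SE 0.039, limma adjusted p = 0.469). HIF-1α is controlled mainly through the stability of its protein, which RNA-seq does not measure. *EPAS1*, encoding HIF-2α, was low at 0.209, 0.241 and 0.220 RPKM against 0.159, 0.120 and 0.166 RPKM. Its groups did not overlap, on 115 and 98 reads in all, and the log2 fold change of 0.38 did not pass the test (SE 0.18, limma adjusted p = 0.222). *EGLN1* and *EGLN3*, prolyl hydroxylases that mark HIF for degradation, overlapped between the groups at 3.89 to 4.39 RPKM and 1.50 to 2.13 RPKM over the 6 libraries.

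The 11 other hypoxia-induced genes split in both directions, with *ADM* higher, *VEGFA*, *BNIP3L* and *KDM3A* lower and 6 of the 10 tested not called. Over all tested genes, 5.62% rose and 7.36% fell. The log2 fold changes of the 10 ran from -0.60 to 1.03, a wider range than that of the enzymes, with a median of -0.020. *VEGFA* (chr6:43770184-43786487), the main growth factor for blood vessels, measured 6.041, 6.004 and 6.037 RPKM in HGC27-FN1 3′-UTR cells and 9.38, 9.22 and 8.89 RPKM in HGC27-control cells. The HGC27-FN1 3′-UTR libraries were nearly equal and all below the controls, and the mean fell by 34.2%. The log2 fold change was -0.60 (SE 0.037, limma adjusted p = 0.000739), on 6086 and 11873 reads.

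*ADM* (chr11:10304680-10307397), encoding the vessel-relaxing peptide adrenomedullin, measured 4.70, 4.11 and 4.01 RPKM in HGC27-FN1 3′-UTR cells and 1.98, 1.81 and 2.37 RPKM in HGC27-control cells. All HGC27-FN1 3′-UTR values were above the control values, with a ratio of means of 2.08 and a log2 fold change of 1.03 (SE 0.11, limma adjusted p = 0.00456). *ADM* and *VEGFA* are both widely used as readouts of HIF activity, yet they moved in opposite directions here. The *ADM* level was 0.778, 0.685 and 0.664 of that of *VEGFA* in HGC27-FN1 3′-UTR cells and 0.211, 0.197 and 0.267 in HGC27-control cells.

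*BNIP3L* (chr8:26382898-26505636), which encodes the mitophagy receptor NIX, measured 3.78, 3.68 and 3.96 RPKM in HGC27-FN1 3′-UTR cells and 5.34, 4.81 and 5.49 RPKM in HGC27-control cells. The groups did not overlap, and the log2 fold change was -0.44 (SE 0.064, limma adjusted p = 0.0102). Its relative *BNIP3* was at 0.050 to 0.180 RPKM over the 6 libraries, with 47 and 51 reads in all, and no difference was detectable at this depth. For *BNIP3*, 14 processed pseudogene rows held as many reads as the gene itself or more, 51 and 79.

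*KDM3A* (chr2:86440647-86492716), a histone H3 lysine 9 demethylase that HIF induces, measured 6.65, 6.59 and 6.83 RPKM against 8.03, 7.80 and 7.74 RPKM in the control libraries. The groups did not overlap, and the mean fell by 14.8%, with a log2 fold change of -0.23 (SE 0.037, limma adjusted p = 0.0137). Leaving out FN1 3′-UTR replicate 1, FN1 3′-UTR replicate 2 or control replicate 2 took the adjusted p from limma to 0.0546, 0.0528 and 0.0594, at fold changes of -0.22, -0.22 and -0.23.

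**Figure D3:**
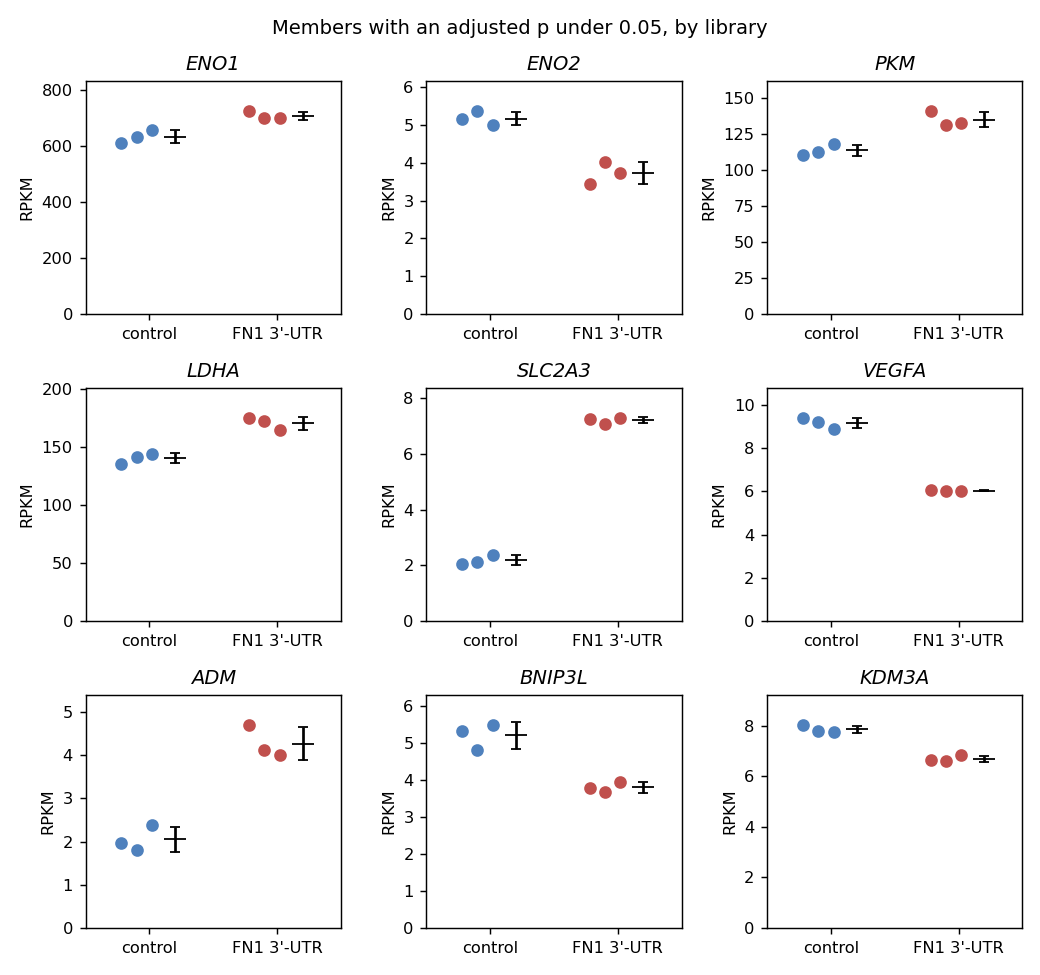
RPKM by library of the 9 genes with an adjusted p under 0.05, HGC27-control in blue and HGC27-FN1 3′-UTR in red, with bars for the mean and SD (n = 3) and axes that start at 0. In every panel the groups are apart, from *SLC2A3* at 7.21 against 2.18 RPKM to *ENO1* at 709.4 against 635.4 RPKM.

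*CA9*, encoding the cell surface carbonic anhydrase that is among the most sensitive hypoxia markers, was close to absent. It measured 0, 0 and 0.041 RPKM in HGC27-FN1 3′-UTR cells and 0.080, 0.019 and 0.032 RPKM in HGC27-control cells, on 2 and 6 reads in all, and was the member left out by the filter. No difference in *CA9* was detectable at this depth. *NDRG1*, another gene often used to mark hypoxia, was also low at 0.50 to 0.64 RPKM over the 6 libraries, with overlap. The collagen prolyl hydroxylases *P4HA1* and *P4HA2* and the ankyrin repeat gene *ANKRD37* overlapped between the groups, with log2 fold changes of 0.08, -0.01 and -0.03. *ERO1A*, an oxidase that forms disulphide bonds in the endoplasmic reticulum, had a log2 fold change of 0.15 with overlap (limma adjusted p = 0.193).

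Some members that share a step or a signal thus differed from each other in their RPKM. The ratios within libraries describe this without the scaling between libraries. The ratios of *SLC2A3* to *SLC2A1*, *ENO2* to *ENO1*, *LDHA* to *LDHB* and *ADM* to *VEGFA* did not overlap between the groups. Those of *HK2* to *HK1* and *P4HA1* to *P4HA2* did. These ratios were computed on pairs chosen by role with the members' results known, and no test was made on them. For *ENO2* to *ENO1* and *ADM* to *VEGFA*, the RPKM of the genes already separated the groups in opposite directions. Those ratios could only separate them too, and add no separate evidence.

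**Figure D4:**
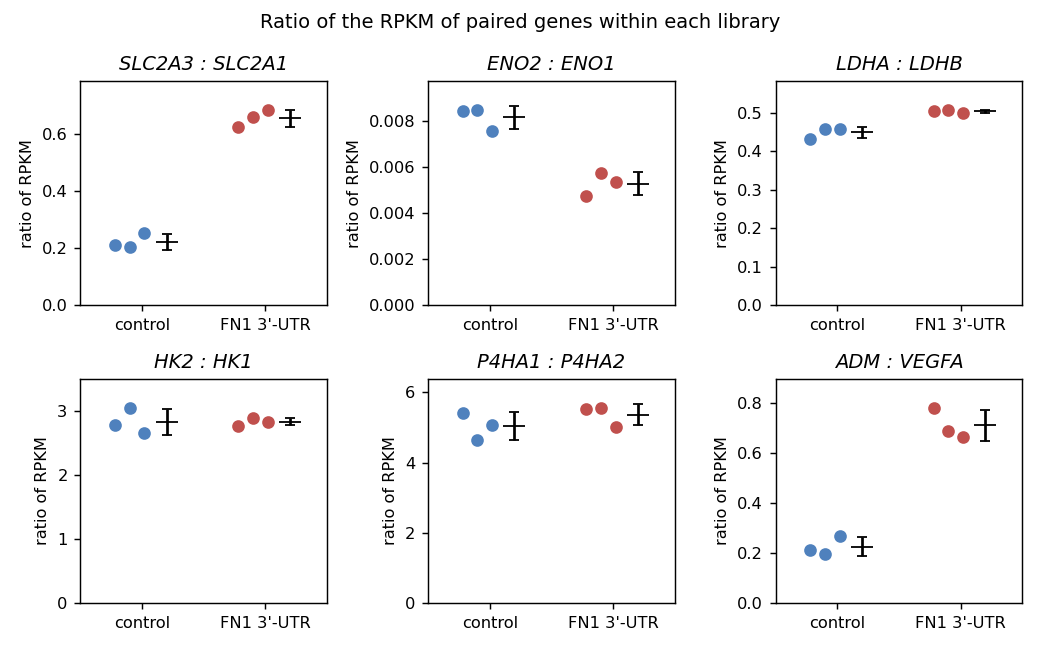
Ratio of the RPKM of 6 pairs of genes within each library, HGC27-control in blue and HGC27-FN1 3′-UTR in red, with bars for the mean and SD (n = 3) and axes that start at 0. The ratio of *SLC2A3* to *SLC2A1* is 0.655 against 0.223 and that of *ADM* to *VEGFA* 0.709 against 0.225, while the points for *HK2* to *HK1* overlap.

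Apart from *SLC2A3* and *BNIP3*, pseudogene rows held at most 2.6% of the reads of any member. The exons of *LDHA*, *PKM*, *SLC2A3*, *ADM*, *ENO2* and *KDM3A* overlapped no other gene. *PGAM4*, a near copy of *PGAM1* with its own row, measured 25.3 to 27.2 RPKM and 19.5 to 24.4 RPKM, so part of the reads of these genes may have been divided between them. Of *CA9* and *ANKRD37*, 38.5% and 35.2% of the exon length lay opposite exons of a gene on the other strand.

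The rest of the pathways was read from 3 lists chosen by gene function. Of 105 further genes in the table, 92 were tested, 11 rose and 17 fell, beside the 5.62% and 7.36% of all tested genes. In the fit of genes with a mean of at least 1 RPKM, the shares over all genes were larger, at 8.27% and 12.7%. The counts of 11 and 17 became 4 to 10 and 4 to 11 with 1 library left out. The lowest were without FN1 3′-UTR replicate 1 for the genes that rose and without control replicate 2 for those that fell. In the remainder of glucose metabolism, 6 of 42 tested genes rose and 6 fell, with a median log2 fold change of 0.029. *PDP1* and *PDHB*, a phosphatase that activates pyruvate dehydrogenase and a subunit of that enzyme, rose by 0.53 and 0.31 on the log2 scale, as did *ARRDC4*, an arrestin that restrains glucose uptake, by 0.51 (limma adjusted p of 0.00979, 0.00796 and 0.00764). *PCK2*, the mitochondrial enzyme that makes phosphoenolpyruvate from oxaloacetate, measured 9.66, 9.31 and 9.41 RPKM against 18.7, 18.1 and 17.5 RPKM. All its HGC27-FN1 3′-UTR values were far below the controls, at a log2 fold change of -0.93 (limma adjusted p = 0.000220). *PYGL*, glycogen phosphorylase, and *MPC1*, a subunit of the mitochondrial pyruvate carrier, fell by 0.29 and 0.26 on the log2 scale (limma adjusted p of 0.00628 and 0.00697).

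In the remainder of the HIF pathway, 1 of 15 tested genes rose and 4 fell, with a median log2 fold change of 0.0053. Over all tested genes, 5.62% rose and 7.36% fell, and at a mean of at least 1 RPKM 8.27% and 12.7% did. *CITED2*, which competes with HIF for its coactivators CBP and p300, measured 5.88, 6.02 and 5.59 RPKM against 3.55, 3.92 and 4.09 RPKM. Its groups did not overlap, with a log2 fold change of 0.59 (limma adjusted p = 0.00456). The coactivator gene *EP300*, the HIF ubiquitin ligase gene *VHL* and *SIAH2*, whose product degrades prolyl hydroxylases, fell by 0.20, 0.25 and 0.27 on the log2 scale (limma adjusted p of 0.0207, 0.0124 and 0.0228). Both activators and inhibitors of the pathway were thus among the genes that fell. With 1 library left out, *VHL* was lost without control replicate 2 (limma adjusted p = 0.0598), *SIAH2* in every such fit (up to 0.0741), and *EP300* in all except the fit without control replicate 1 (up to 0.0798). *CITED2* kept its call in each.

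Among further hypoxia-induced genes, 4 of 35 tested rose and 7 fell, with a median log2 fold change of -0.14. Over all tested genes, 5.62% rose and 7.36% fell, with a median of -0.035. In the fit of genes with a mean of at least 1 RPKM, these shares were 8.27% and 12.7%. *DDIT4*, encoding REDD1, an inhibitor of mTORC1 that hypoxia, amino acid shortage and other stresses induce, measured 13.25, 14.07 and 12.83 RPKM in HGC27-FN1 3′-UTR cells and 38.8, 37.2 and 38.1 RPKM in HGC27-control cells. The groups lay far apart, at a log2 fold change of -1.50 (SE 0.041, limma adjusted p = 9.89e-05), the only one of these 92 genes that also passed the study's criteria in the lower direction. *EFNA3*, an ephrin ligand, and *MXI1*, an antagonist of MYC, fell by 0.52 and 0.38 on the log2 scale (limma adjusted p of 0.0267 and 0.0156). In the other direction, *LOX*, the collagen cross-linking enzyme, *TFRC*, the transferrin receptor, and *PLOD2*, a collagen lysyl hydroxylase, rose by 0.39, 0.27 and 0.22 (limma adjusted p of 0.0141, 0.0168 and 0.0263). Without FN1 3′-UTR replicate 1 the calls of *EFNA3*, *MXI1*, *LOX*, *TFRC* and *PLOD2* were all lost, at adjusted p-values of 0.0788, 0.0552, 0.0552, 0.0622 and 0.0692 from limma. They were also lost without control replicate 2, at 0.0933, 0.0578, 0.0590, 0.0619 and 0.0964. Leaving out other libraries lost *PLOD2* without FN1 3′-UTR replicate 2, FN1 3′-UTR replicate 3 and control replicate 1, *EFNA3* without control replicates 1 and 3, *MXI1* without FN1 3′-UTR replicate 2 and *TFRC* without FN1 3′-UTR replicate 3. *DDIT4* kept its call under all 14 other settings.

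**Figure D5:**
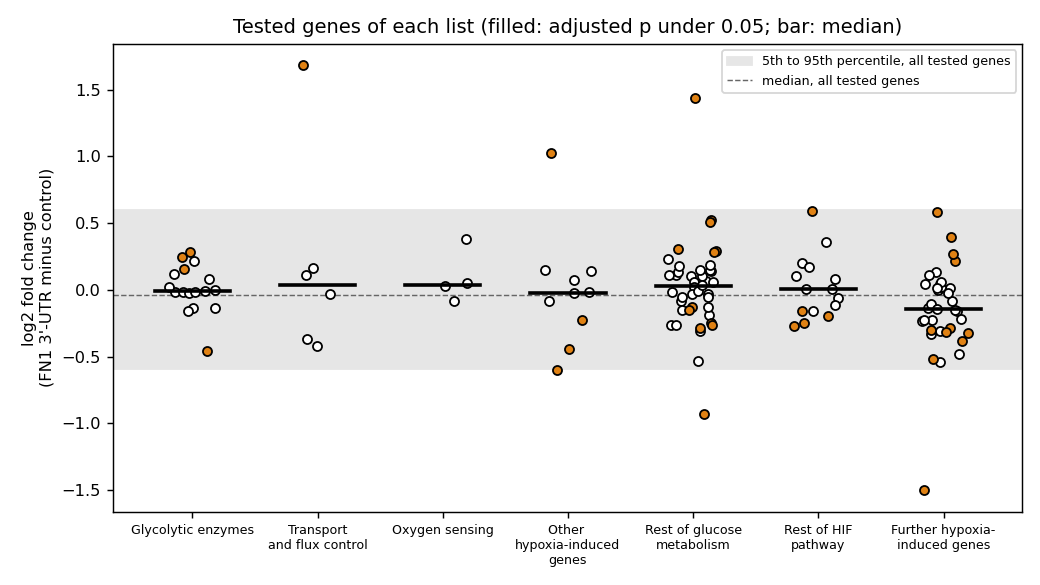
Log2 fold changes of the tested genes in the 4 role groups of members and the 3 lists of further pathway genes, 1 point per gene, filled for an adjusted p under 0.05, with a bar for each median. The grey band is the 5th to 95th percentile of all tested genes, -0.59 to 0.60, with all 4 filled glycolytic enzymes inside it and *SLC2A3*, *ADM* and *VEGFA* outside.

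The comparison of glycolytic enzymes with other hypoxia-induced genes therefore gave 3 higher and 1 lower of 17 against 1 higher and 3 lower of 10. Of all tested genes, 5.62% were higher and 7.36% lower. In the fit of genes with a mean of at least 1 RPKM these shares were 8.27% and 12.7%. The medians of the enzymes and of the other hypoxia-induced genes, -0.0065 and -0.020, lay close to 0 and to the median of all tested genes. No test was made of the difference between the lists. Without control replicate 2 the counts were 1 higher and 0 lower among the enzymes and 1 higher and 2 lower among the other hypoxia-induced genes. The enzyme calls that rose amounted to 11.6% to 21.6% in mean RPKM, and the mean of *ENO2* fell by 27.7%. The called genes with the largest differences, *SLC2A3*, *ADM* and *VEGFA*, lay outside the enzymes.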

How the data were processed

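RNA-seq libraries of HGC27-control and HGC27-FN1 3′-UTR cells (3 each) were grouped by the genotype in the sample labels. Libraries were strand-specific per the study's methods, and the authors deposited RPKM per gene, with GRCh38 coordinates and gene lengths, 1 table per library. The submitters' processing notes name Trimmomatic 0.36, STAR 2.5.3a, and featureCounts of Subread 1.5.1. The handling of multi-mapped and duplicate reads and the annotation release are not given in the sources used here. RPKM times length gave whole reads for 100% of values, within 0.01 read, and these gave the depths, whose floors cover counting error only. No libraries of a group were duplicates, since their reads gave chi-square values of 2.67 to 6.19 per gene. Of the 38 members, 31 had the same position as in GENCODE release 29.

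The values log2(RPKM + 0.1) were fitted with limma 3.58.1 in R 4.3.3, with group as the only term and a trend in the prior variance. Genes were required to have at least 0.1 RPKM in at least 3 libraries. P-values are two-sided and adjusted by Benjamini-Hochberg over all tested genes. Calls are adjusted p-values under 0.05. The scripts were tested on simulated data. Tables and figures were made with Python 3.11.15, pandas 2.3.3, numpy 2.4.6 and matplotlib 3.10.9.

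The members, the role lists and the lists of further pathway genes were chosen with earlier results of these data known, so a list is described by counts and medians with no test. Values are given by library for called members and for *SLC2A1*, *HK2*, *PFKFB3*, *LDHA*, *PKM*, *GAPDH*, *HIF1A*, *EPAS1*, *CA9* and *VEGFA*. From each further list, up to 3 called genes in each direction with the largest log2 fold change and a mean of at least 1 RPKM are named. *ELOB* and *ELOC* were matched by the older symbols TCEB2 and TCEB1, and the markers *TFF2*, *GKN1* and *HBB* were not matched. Promoter sequences came from RefSeq on GRCh38.p14. The alternatives were the pseudocount, the filter, median-ratio scaling, the replicate number as a block, no trend in the prior variance, limma's voom on recovered reads, the study's criteria and each library left out in turn.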

Additional observations from a re-analysis of the deposited data

How the results depend on the processing

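Of the 9 called members, *LDHA*, *SLC2A3*, *VEGFA*, *ADM* and *BNIP3L* kept direction and call under all 14 other fits, *ENO2* in 13, *PKM* in 11, *KDM3A* in 10 and *ENO1* in 6. Deviations of same-numbered libraries correlated at 0.00244, 0.0211 and 0.0103 over all tested genes. Libraries of unlike number were not compared, and genes with few reads counted in full, so these values cannot decide whether replicate numbers pair the libraries. Assigned reads rose with the replicate number in both groups. Blocking on replicate number (the replicate block) left 3 members higher and 3 lower, 1 glycolytic enzyme higher, 6 further pathway genes higher and 6 lower, and 564 of all genes higher and 598 lower. Under this block *PKM*, *KDM3A* and *ENO1* had adjusted p-values of 0.0587, 0.0602 and 0.117 from limma. The calls of *FN1* (0.0852) and, among the further pathway genes named, of *PDP1* (0.0542), *VHL* (0.0571), *EP300* (0.0611), *EFNA3* (0.0627), *TFRC* (0.0659), *SIAH2* (0.0695) and *PLOD2* (0.0784) were lost under it as well, and it changed the call of no other member and of no other gene that the naming rule gave. Without a trend in the prior variance, 3 members and 1 glycolytic enzyme were higher, and *ENO2* stayed lower. The share of all genes under this setting is not given here, so these counts are not a result about the members. Median-ratio scaling gave 5 glycolytic enzymes higher, and *ENO2* stayed lower. It also raised the count of all tested genes that were higher, as given above, so the added enzymes are not particular to glycolysis. With voom on recovered reads, 9 members were higher and 6 lower, 5 glycolytic enzymes were higher and 2 lower, and 2043 of all genes were higher and 3065 lower. At the study's criteria, 2 members were higher and 0 lower, and 0 glycolytic enzymes were higher and 0 lower. At the same criteria 0 other hypoxia-induced genes were lower, and 1 further pathway gene was higher and 1 lower. Of all genes, 385 were higher and 190 lower. These criteria were applied to the limma fit used here, so the counts are not those that the study reported. Leaving out 1 library gave 3 to 5 members higher and 2 to 4 lower, 1 to 3 glycolytic enzymes higher and 0 to 1 lower, 2 to 3 other hypoxia-induced genes lower, 4 to 10 further pathway genes higher and 4 to 11 lower, and 501 to 927 of all genes higher and 470 to 1015 lower. These fits have fewer libraries. The cause of the other changes was not tested.

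Signs turned only in members that were not called. These lay near 0, except *BNIP3* at a log2 fold change of 0.14. Under median-ratio scaling the log2 fold changes were 0.021 for *GPI*, 0.023 for *PFKM*, 0.015 for *PFKP*, 0.018 for *TPI1*, 0.019 for *P4HA2*, 0.028 for *PGK1*, 0.00074 for *PFKFB3* and 0.0076 for *ANKRD37*. With voom they were -0.0029 for *PFKL* and -0.018 for *EGLN3*. With 1 library left out they ran from -0.057 to 0.034 for *GPI*, -0.036 to 0.045 for *PFKL*, -0.024 to 0.0095 for *PFKM*, -0.043 to 0.012 for *PFKP*, -0.0073 to 0.066 for *GAPDH*, -0.027 to 0.029 for *PGK1*, -0.092 to 0.11 for *EGLN3*, -0.045 to 0.29 for *BNIP3*, -0.13 to 0.054 for *ANKRD37* and -0.051 to 0.010 for *P4HA2*. Depth limits *CA9*, *BNIP3* and *EPAS1*, with totals of 2, 47 and 115 reads for HGC27-FN1 3′-UTR and 6, 51 and 98 for HGC27-control.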

Other observations

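*HKDC1* (chr10:69220303-69267559), a gene related to the hexokinases *HK1* and *HK2*, was singled out after its values were seen, since its mean lay below the 1 RPKM needed to be named. It measured 0.373, 0.336 and 0.322 RPKM in HGC27-FN1 3′-UTR cells and 0.053, 0.069 and 0.070 RPKM in HGC27-control cells, without overlap. The log2 fold change of 1.44 (SE 0.18, limma adjusted p = 0.00665) rests on 101 and 25 reads in all. Among the 92 further pathway genes tested it alone was higher at the study's criteria, while *HK1* and *HK2*, at 7.19 and 20.3 RPKM in HGC27-FN1 3′-UTR cells, were not called.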
